A study of Homo sapiens with 18 samples.

Results

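HepG2 is a human hepatocellular carcinoma line, and this account follows 6 genes in it whose proteins break down or remodel circulating lipoproteins: the lipases LIPC, LIPG and LPL, the plasma enzyme LCAT, the transfer protein CETP and the lipase inhibitor ANGPTL4. They were taken by symbol from the 35238 gene rows of the count table, without regard to their values. Of these 6, 5 passed the filter on low counts (14797 genes passed in all), and LPL did not. Reads were counted per gene in 18 RNA-seq libraries, 3 in each of 6 groups. One group received 0.1% DMSO and another 0.1% ethanol, the vehicles. Another 3 groups received 10 µM of 6N, 10CA or 6N-10CA, small-molecule ligands of the nuclear receptor LRH-1 (gene NR5A2), and the last received 100 µM of DLPC, the phospholipid dilauroylphosphatidylcholine. All 6 groups were the same unmodified cell line, and charcoal-stripped serum was used during treatment. The length of treatment is not given in the sources used here. The titles number the replicates but do not say whether they were separate cultures, so each p-value measures only the spread between these libraries, which may be technical. In such bulk libraries, fewer cells that express a gene and less RNA per cell cannot be told apart.

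Triglyceride-rich lipoproteins are hydrolysed in the capillaries of fat and muscle by lipoprotein lipase (LPL), while the liver makes hepatic lipase (LIPC), which acts on remnants and on high-density lipoprotein (HDL), and many tissues make endothelial lipase (LIPG), which prefers HDL phospholipids. LCAT, secreted by hepatocytes, esterifies cholesterol on HDL, and CETP exchanges cholesteryl esters and triglycerides between HDL and the other lipoproteins. ANGPTL4 is a secreted protein that inactivates LPL, and its gene is a known target of PPAR and hypoxia signalling. LRH-1 binds DNA as a monomer at sites that hold the letters CAAGGTC.

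Promoter letters are shown for the 2 lipase genes with reads, chosen with their levels known. The window of LIPC held the LRH-1 core and that of LIPG none of the motifs searched. A link between motifs and levels was not tested. In the RefSeq promoter table (build GRCh38.p14), 4 of the 6 genes matched an entry; LPL and LCAT had none. The 250 bases before the start were searched on both strands for the LRH-1 core CAAGGTC, the nuclear receptor hexamer AGGTCA, the spaced repeat of that hexamer known as DR1 and the sterol element TCACNCCAC. The core and the hexamer share letters and can overlap. The start is that of the RefSeq entry; for all 4 genes it lies downstream of the GENCODE gene start given with each gene, so that the windows of LIPC, LIPG and ANGPTL4 lie inside the annotated gene and that of CETP does in part. LIPC held the core at bases 231 to 225 before its start and an overlapping hexamer at bases 232 to 227, both on the strand opposite to the gene. Among all 35116 windows of that length, 2.84% held the core, 12.1% the hexamer, 0.883% the sterol element and 0.0171% the DR1 repeat. The windows of LIPG, CETP and ANGPTL4 held no match to any of them, which says only that these letters are not in those windows. The lines give the stretch of each window free of annotated exons, 5′ to 3′ on the plus strand, with the letters of the overlapping core and hexamer in capitals: LIPC at chr15:58431741-58431797 and LIPG at chr18:49561891-49562030.
LIPC: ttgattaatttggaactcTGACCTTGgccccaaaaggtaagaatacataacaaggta
LIPG: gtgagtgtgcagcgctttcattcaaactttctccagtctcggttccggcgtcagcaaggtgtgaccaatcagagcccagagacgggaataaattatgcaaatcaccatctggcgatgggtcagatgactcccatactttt

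The level of a gene is given in CPM, its count divided by the TMM-scaled total of the library and multiplied by 1000000. LCAT was the most abundant of the 6 and LIPC the next. Divided by exon length, the mean over all libraries was 72.5 CPM per kb for LCAT, 10.1 for LIPC, 1.64 for LIPG, 1.21 for CETP and 1.03 for ANGPTL4. That length is the union of the exons of all annotated transcripts used, 11828 bases for LIPG and 1981 for CETP. A union longer than the transcript expressed makes the value per kb too low. Before this division, the median was 19.5 CPM for LIPG and 2.53 for CETP. Among the genes tested, the mean CPM of LCAT lay at percentile 86.5, that of LIPC at 69.6, that of LIPG at 48.5, that of CETP at 21.2 and that of ANGPTL4 at 19.7. The 18 libraries of LIPC spanned a 1.33-fold range and those of LCAT a 1.41-fold range, whereas LIPG spanned 2.37-fold, CETP 2.38-fold and ANGPTL4 3.44-fold. CETP rested on 41 to 110 counts per library and ANGPTL4 on 35 to 109, so counting error adds to their spread.

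The plot of levels by library shows these values group by group. LIPG was lowest in the 6N libraries, and LCAT was high in the 6N and 6N-10CA libraries and low in the 10CA libraries. For CETP and ANGPTL4, the 2 genes at low level, the libraries of most compared groups overlapped. How many of all genes had libraries without overlap was not counted, so a lack of overlap is only a description here and below.

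**Figure D1:**
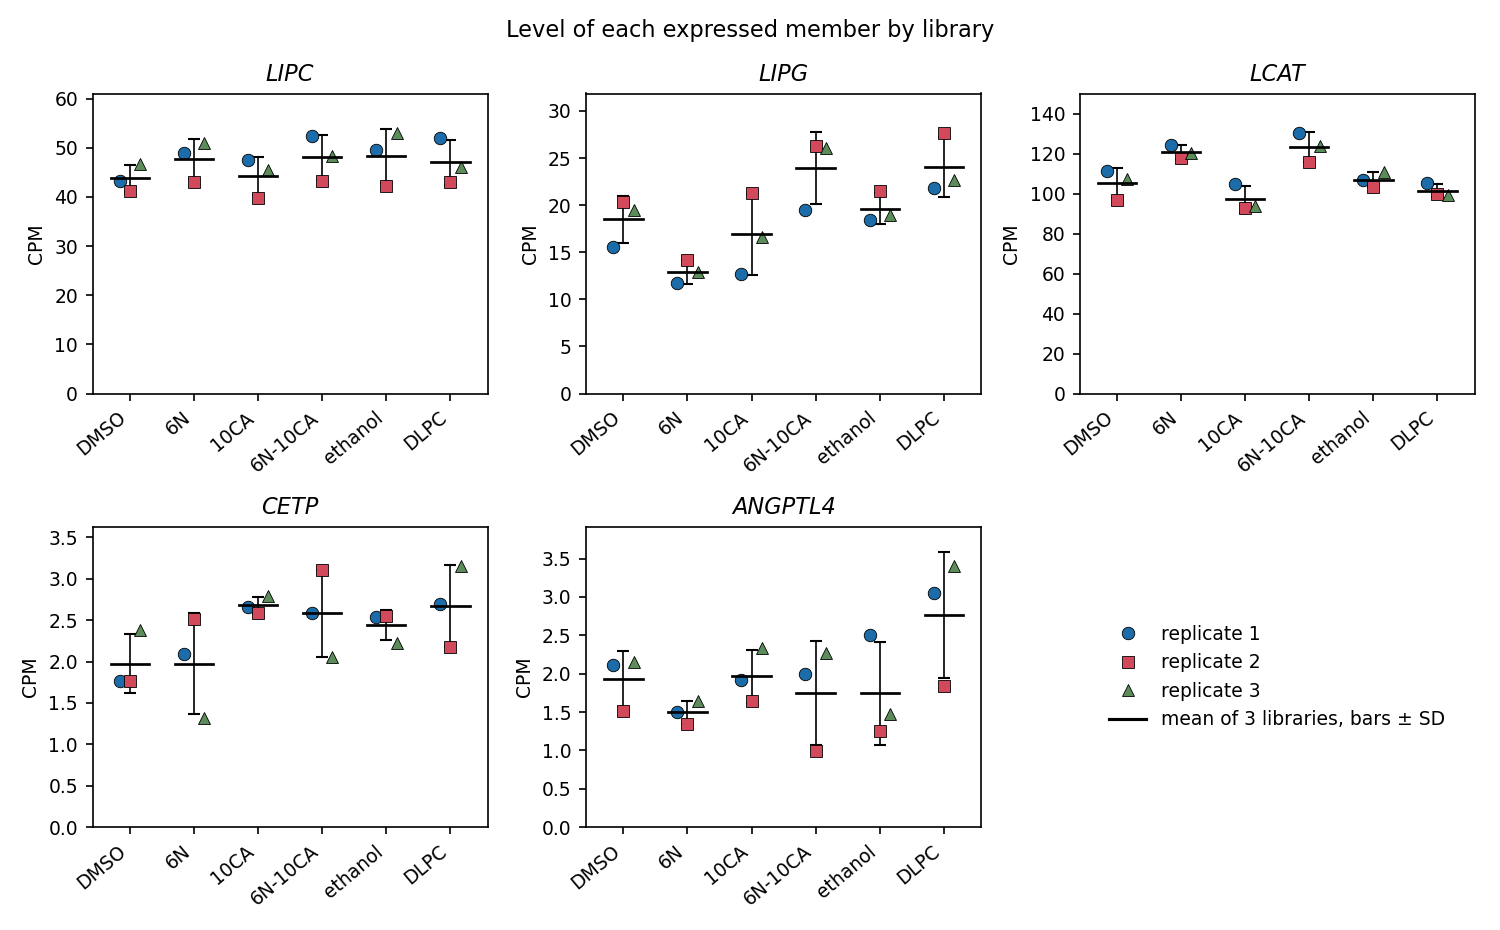
Level in CPM (vertical axis, from 0) of LIPC, LIPG, LCAT, CETP and ANGPTL4 in each of the 18 libraries, by group (horizontal axis); symbols mark the replicate number, lines the mean of 3 libraries and bars ± SD. For LIPG the 6N libraries, at 11.7 to 14.2 CPM, lie below all DMSO and 6N-10CA libraries, and for LCAT the 6N libraries, at 118 to 125 CPM, lie above all 10CA libraries.

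Of the 40 tests on these genes (5 genes in 8 comparisons), 3 passed an adjusted p of 0.05, and each was a difference between small molecules at the same 10 µM dose. LIPG was higher under 6N-10CA than under 6N. LCAT was higher under 6N-10CA than under 10CA and lower under 10CA than under 6N. The p-values come from edgeR's quasi-likelihood test, adjusted by Benjamini and Hochberg over all 14797 genes. A log2 fold change is given with its standard error (SE) or 95% interval. The remaining 37 tests did not pass in this fit, which has no term for the replicate number. With that number as a block, LIPG and LCAT were also called in comparisons with a vehicle, beside more of all genes. The values with the block are given at the end. An unadjusted p under 0.05 was found in 10 of the 40, and in 9.9% of the 118376 tests over all genes and comparisons, of which 0.753% were called.

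LIPG, endothelial lipase (ENSG00000101670, GRCh38 chromosome 18, 49560699 to 49599182, plus strand), had the largest called difference. In the 6N libraries it stood at 11.7, 14.2 and 12.9 CPM. In the DMSO libraries it stood at 15.6, 20.3 and 19.5 CPM, and in the 10CA libraries at 12.7, 21.3 and 16.7. The 6N-10CA libraries held 19.5, 26.3 and 26.1 CPM. Every 6N library was below every DMSO and every 6N-10CA library, while the 10CA libraries reached from the 6N range into the 6N-10CA range. The ethanol libraries held 18.4, 21.5 and 19.0 CPM and the DLPC libraries 21.8, 27.7 and 22.7, so the lowest DLPC library lay just above the highest ethanol library.

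By group mean, LIPG rose in the order 6N (12.9 ± 1.3 CPM, SD, n = 3), 10CA (16.9 ± 4.3), DMSO (18.5 ± 2.5), ethanol (19.6 ± 1.6), 6N-10CA (24.0 ± 3.8) and DLPC (24.1 ± 3.2). Each neighbouring pair in that order overlapped, so only groups further apart were separate. The 6N-10CA libraries exceeded the 6N libraries by 0.89 on the log2 scale (SE 0.16, 95% interval 0.56 to 1.22), or 1.85-fold, with an adjusted p of 0.003247 in edgeR. That call was kept under all 12 alternatives, where the log2 fold change ran from 0.82 to 1.01 and the highest adjusted p was 0.02975. LIPG was the 1 member called in this comparison, in which 1.64% of all tested genes were called.

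The other LIPG differences did not pass in this fit, which has no term for the replicate number. Against DMSO, the log2 fold change was -0.51 for 6N (95% interval -0.85 to -0.18, adjusted p = 0.203 in edgeR) with no overlap of the libraries. It was 0.38 for 6N-10CA (0.06 to 0.70, adjusted p = 0.3974) and -0.13 for 10CA (-0.45 to 0.20), both with overlap. Between 6N-10CA and 10CA it was 0.51 (0.18 to 0.83, adjusted p = 0.2776), and between 10CA and 6N 0.38 (0.05 to 0.72, adjusted p = 0.2774). These values do not show that the compounds act alike on LIPG. DLPC against ethanol gave 0.29 (-0.03 to 0.61, adjusted p = 0.4422). DLPC was given at 100 µM, so it was not compared with the small molecules.

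LIPC, hepatic lipase (ENSG00000166035, chromosome 15, 58410569 to 58569843, plus strand), was expressed at a nearly even level. Its lowest, median and highest libraries held 39.9, 46.4 and 53.1 CPM. Group means ran from 43.8 ± 2.7 CPM (SD, n = 3) in DMSO and 44.2 ± 3.9 in 10CA, through 47.1 ± 4.6 in DLPC, 47.7 ± 4.1 in 6N and 48.0 ± 4.6 in 6N-10CA, to 48.3 ± 5.5 in ethanol. The libraries of every pair of compared groups overlapped. In all 8 comparisons the log2 fold change of LIPC was from -0.11 to 0.14, each with an SE of 0.10. For 6N-10CA against 6N, where LIPG differed, LIPC gave 0.01 (95% interval -0.19 to 0.21). The gene overlaps ALDH1A2 and LIPC-AS1 on the other strand, and the strandedness of the counting is not given in the sources used here, so reads of the 3 genes may be mixed where they share exons.

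LCAT (ENSG00000213398, chromosome 16, 67939750 to 67944131, minus strand) separated the small molecules in another way than LIPG. Its 6N libraries held 125, 118 and 120.4 CPM, and its 6N-10CA libraries 131, 116 and 124. The 10CA libraries held 105, 93.0 and 93.9 CPM. All 6 libraries of 6N and 6N-10CA were above all 3 of 10CA. They were also above the DMSO libraries (111, 97.0 and 108 CPM), which overlapped those of 10CA. Ethanol gave 107, 103 and 111 CPM and DLPC 106, 100 and 99.3.

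LCAT rose by group mean from 10CA (97.2 ± 6.6 CPM, SD, n = 3) through DLPC (102 ± 3.4), DMSO (105 ± 7.4), ethanol (107 ± 3.7) and 6N (121 ± 3.4) to 6N-10CA (123 ± 7.4). The one gap between neighbours in that order without overlap was that between ethanol and 6N. 10CA against 6N gave a log2 fold change of -0.31 (SE 0.06, 95% interval -0.44 to -0.19), or 0.80-fold, with an adjusted p of 0.00554 in edgeR. It stayed called in all 12 alternatives, the highest adjusted p being 0.04976. LCAT was the 1 of 5 members called there, where 1.71% of all genes were called.

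6N-10CA against 10CA gave 0.34 for LCAT (SE 0.06, 95% interval 0.22 to 0.47), or 1.27-fold, with an adjusted p of 0.01087 in edgeR. It was again 1 of 5 members, beside 0.23% of all genes. This call was lost in edgeR without replicate 2 or 3 of 10CA (adjusted p = 0.07462 and 0.1052), without replicate 1 or 3 of 6N-10CA (0.1015 and 0.06133), and with only the compared groups in the fit (0.1251). Between 6N-10CA and 6N the difference was 0.03 (-0.09 to 0.15), so a difference of more than 0.15 in log2 lay outside the interval.

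Against DMSO, LCAT gave 0.20 under 6N (95% interval 0.08 to 0.32, adjusted p = 0.1544 in edgeR) and 0.23 under 6N-10CA (0.11 to 0.35, adjusted p = 0.1167), both without overlap of libraries and neither called. Under 10CA it gave -0.11 (-0.24 to 0.01, adjusted p = 0.7377), and under DLPC against ethanol -0.07 (-0.20 to 0.05). LCAT overlaps SLC12A4 on the same strand, and how the counting treated reads in the shared stretch is not given in the sources used here.

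CETP (ENSG00000087237, chromosome 16, 56961850 to 56983845, plus strand) was expressed at a low level. Its libraries held 1.77, 1.77 and 2.39 CPM in DMSO, 2.09, 2.52 and 1.32 in 6N, and 2.66, 2.59 and 2.79 in 10CA. They held 2.59, 3.11 and 2.06 in 6N-10CA, 2.54, 2.56 and 2.23 in ethanol, and 2.70, 2.18 and 3.15 in DLPC. The 10CA libraries were all above those of DMSO and 6N, and the other compared groups overlapped. Group means rose from DMSO (1.97 ± 0.36 CPM, SD, n = 3) and 6N (1.98 ± 0.61) through ethanol (2.44 ± 0.19) and 6N-10CA (2.58 ± 0.52) to DLPC (2.68 ± 0.49) and 10CA (2.68 ± 0.10), and neighbours in that order overlapped. The log2 fold change of 10CA was 0.44 against DMSO (95% interval -0.01 to 0.89, adjusted p = 0.7233 in edgeR) and 0.44 against 6N (-0.01 to 0.89, adjusted p = 0.3765). No CETP test passed, and with SEs of 0.21 to 0.22 these intervals reach from about no difference to large ones.

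ANGPTL4 (ENSG00000167772, chromosome 19, 8363289 to 8374373, plus strand) had its highest group mean under DLPC. Its DLPC libraries held 3.06, 1.83 and 3.40 CPM and its ethanol libraries 2.51, 1.25 and 1.47, so that the 2 groups overlapped. In DMSO it stood at 2.11, 1.51 and 2.16 CPM, in 6N at 1.50, 1.34 and 1.64, in 10CA at 1.91, 1.65 and 2.33, and in 6N-10CA at 1.99, 0.988 and 2.26. The second replicate was the lowest of its group in all 6 groups. From lowest to highest, the group means were 1.50 ± 0.15 CPM (SD, n = 3) in 6N, 1.74 ± 0.67 in ethanol, 1.75 ± 0.67 in 6N-10CA, 1.93 ± 0.36 in DMSO, 1.96 ± 0.35 in 10CA and 2.76 ± 0.82 in DLPC, with overlap between all neighbours. DLPC against ethanol gave a log2 fold change of 0.67 (95% interval 0.04 to 1.29), with an adjusted p of 0.3372 in edgeR. Its other 7 values lay between -0.37 and 0.39 and did not pass either; the libraries of 10CA and 6N did not overlap (0.39, adjusted p = 0.6388). ANGPTL4 shares a single end base with the antisense gene RAB11B-AS1.

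LPL (ENSG00000175445, chromosome 8, 19901717 to 19967259, plus strand) had 0 counts in all 18 libraries. The limit that 0 counts allow, taken as 3 counts per library, was 0.0847 to 0.108 CPM by depth and covers counting error only. GPIHBP1, which anchors LPL to capillary endothelium, also had 0 counts in every library.

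Of the 5 tested members, the number with an adjusted p under 0.05 in edgeR was 0 in each comparison with a vehicle. The background was 1.14% of all genes called for 6N against DMSO, 0% for 10CA against DMSO, 0.264% for 6N-10CA against DMSO and 1.04% for DLPC against ethanol. For ethanol against DMSO it was 0%. In the same order, 2, 0, 2, 1 and 0 members had an unadjusted p under 0.05, as did 9.35%, 6.98%, 9.91%, 13% and 3.24% of all genes. DESeq2 called 0, 0, 1, 0 and 0 members, and 246, 13, 173, 380 and 13 of all genes. It gave no adjusted p for LIPC, LIPG, CETP and ANGPTL4 in 10CA against DMSO, so these could not be called there. The same held for CETP and ANGPTL4 in ethanol against DMSO. By limma-voom 0 members were called in any of the 5, and 170, 0, 39, 153 and 0 of all genes. With the replicate number as a block, LIPG and LCAT were called in some of these comparisons, beside more of all genes. Those values are given at the end, with the dependence on the processing. With 5 members, a share of 1 in 5 rests on a single gene, so these counts describe the members and are not set apart from the background.

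**Figure D2:**
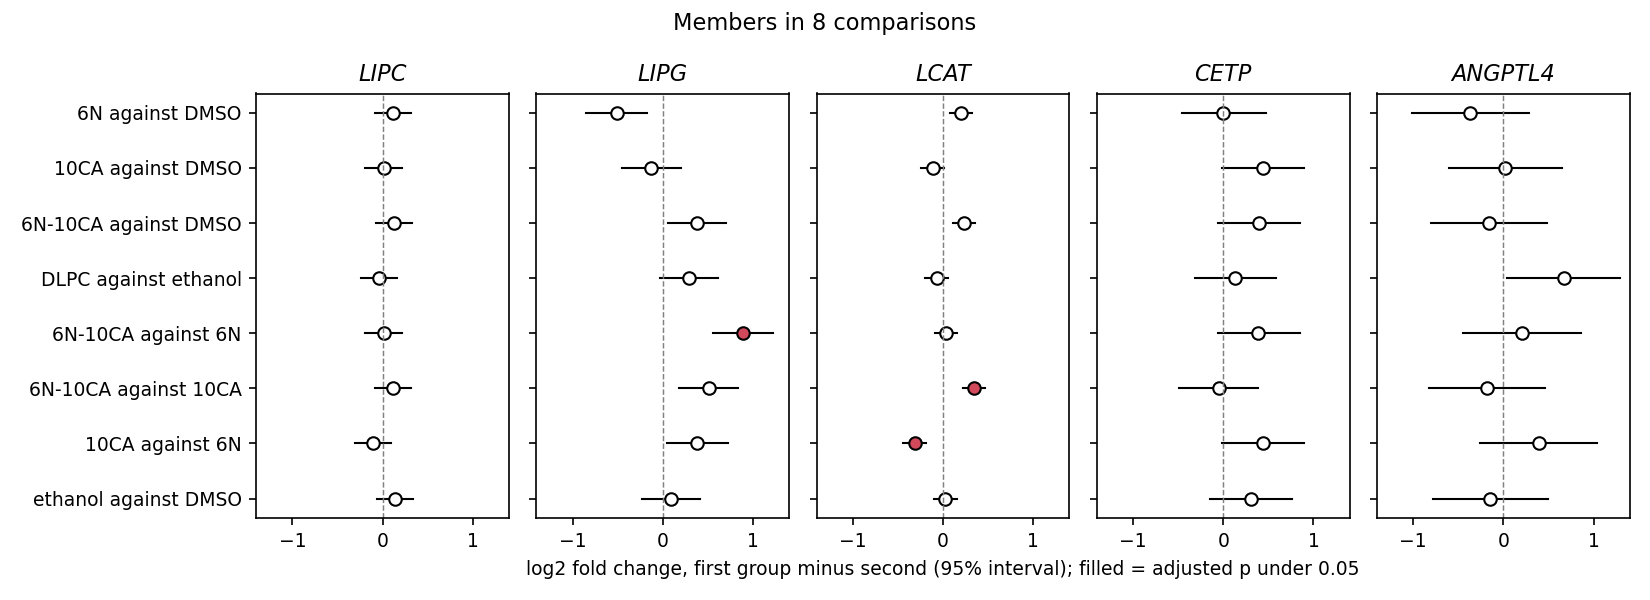
Log2 fold change (horizontal axis, first group minus second) of each tested member in the 8 comparisons (vertical axis); lines are 95% intervals from edgeR and filled points have an adjusted p under 0.05. The filled points are LIPG in 6N-10CA against 6N (0.89) and LCAT in 6N-10CA against 10CA (0.34) and 10CA against 6N (-0.31), and the intervals of CETP and ANGPTL4 are wider than those of LIPC and LCAT.

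On log2 CPM over the 18 libraries, which share groups and replicate numbers, Pearson's r was highest for LIPC with LCAT, at 0.55, and between -0.28 and 0.37 for the other 9 pairs. Among 12610 genes whose mean reached 1 CPM, those most like LIPG were ACSL1, a long-chain acyl-CoA synthetase (r = 0.92, and 0.97 over the 6 group means), TACC2 (0.91 and 0.94) and IDI1, an isomerase of isoprenoid synthesis (0.88 and 0.97). For LCAT they were REEP6 (0.91 and 0.94), the gap junction gene GJB1 (0.89 and 0.91) and CALM3, a calmodulin gene (0.89 and 0.94). For LIPC they were FKBP8, MPST and ACSF2, each at 0.86, with 0.68, 0.76 and 0.69 over group means and 0.91, 0.90 and 0.92 within groups. The likeness of LIPC to these genes was thus higher among replicates than among treatments. Within groups, r with LIPG was 0.79 for ACSL1, 0.82 for TACC2 and 0.55 for IDI1. With LCAT it was 0.82 for REEP6, 0.91 for GJB1 and 0.66 for CALM3. The genes most like ANGPTL4 were WDR70 and LOX, both at 0.89, and RAP1GAP2 at 0.88 (0.86, 0.86 and 0.89 within groups). Those most like CETP were THAP9 and HACD1, both at 0.76, and GGACT at 0.74 (0.61, 0.66 and 0.63 within groups). These genes were the top of a ranking of all 12610, and the values are a description.

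Part of the spread within groups followed the replicate numbers. LIPG was lowest in replicate 1 and highest in replicate 2 in 6 of 6 groups. LIPC and ANGPTL4 were lowest in replicate 2 in 6 of 6 groups. LCAT was lowest in replicate 2 and highest in replicate 1 in 5 of 6 groups each, and CETP had no such order. The labels do not say what the numbers stand for.

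**Figure D3:**
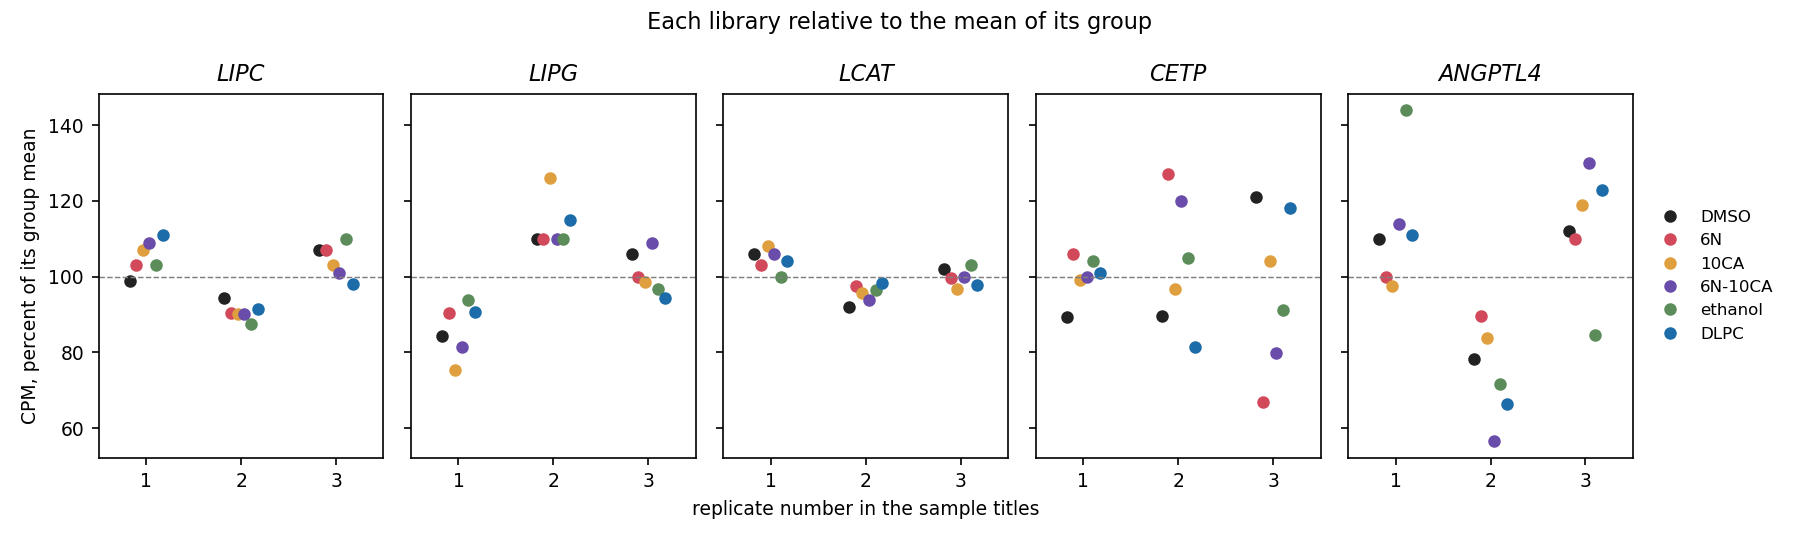
Level of each library as a percent of its group mean (vertical axis) by the replicate number of its title (horizontal axis), for LIPC, LIPG, LCAT, CETP and ANGPTL4; colours mark the 6 groups and the dashed line is 100 percent. All 6 LIPG points of replicate 1 lie below the line and all 6 of replicate 2 above it, and all 6 points of LIPC and of ANGPTL4 for replicate 2 lie below it.

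Around the members, 9 lists of 83 related genes are reported, of which 72 were tested. The count of listed genes called higher and lower was 1 and 5 for 6N against DMSO, 3 and 0 for 6N-10CA against DMSO, and 3 and 0 for DLPC against ethanol. It was 9 and 0 for 6N-10CA against 6N and 5 and 0 for 10CA against 6N. These made up 8.33%, 4.17%, 4.17%, 12.5% and 6.94% of the tested listed genes, beside 1.14%, 0.264%, 1.04%, 1.64% and 1.71% of all genes. The lists were chosen with earlier results of these data known, so nothing is read from that difference. In edgeR 0 were called for 10CA against DMSO, 6N-10CA against 10CA and ethanol against DMSO. There, 4, 17 and 2 listed genes had an unadjusted p under 0.05, DESeq2 called 0, 1 and 1, and limma-voom 0 in each. The median log2 fold change of a list ran from -0.15 to 0.28 over 8 of the lists and the 8 comparisons, and from -0.34 to 0.36 for the list of 3 tested angiopoietin-like genes. The median of all genes was within 0.01 of 0 in every comparison.

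Among the regulators of the members (16 genes, all tested), 3 were called: both sterol regulatory factors and RXRA. SREBF1, which drives fatty acid synthesis genes, fell under 6N from 306 to 149 CPM (log2 fold change -1.04 against DMSO, adjusted p = 2.980e-08 in edgeR). It was 0.93 higher under 6N-10CA and 0.97 higher under 10CA than under 6N. SREBF2, the factor of cholesterol synthesis genes, gave -0.33, 0.46 and 0.33 in the same comparisons, all called. LIPG was lowest in the same group, 6N, but its own difference from DMSO was not called. RXRA, the partner of many nuclear receptors, was 0.53 higher in DLPC than in ethanol (adjusted p = 0.003633), but 0.21 (adjusted p = 0.2153) against DMSO. The list held no other called gene; NR5A2 itself had group means of 3.85 to 4.30 CPM.

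Of 6 tested cofactors and inhibitors of lipases carried by lipoproteins, 1 was called. It was ANGPTL8, a secreted relative of ANGPTL4 that takes part in the inhibition of LPL. Its DLPC libraries held 175, 173 and 181 CPM and its ethanol libraries 117, 109 and 108, without overlap. The log2 fold change was 0.66 (SE 0.09, 95% interval 0.48 to 0.84, adjusted p = 7.161e-04 in edgeR), and it was 0.74 with DMSO as the vehicle. ANGPTL4 gave 0.67 in the same comparison with wider error (SE 0.30) and was not called. ANGPTL8 lies inside DOCK6, on the other strand, so reads of the 2 genes may be mixed where they share exons.

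In HDL formation and remodelling, 1 of 9 tested genes was called. It was PLTP, which moves phospholipid between lipoproteins as CETP moves neutral lipid, and was 0.26 higher under 6N-10CA than under 6N (adjusted p = 0.02205, but up to 0.1113 without 6N replicate 2 or 3 or 6N-10CA replicate 1 or 2, and 0.1866 with only the compared groups).

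The other lipid hydrolases (10 tested of 12) held 2 called genes, both lower under 6N. LIPA, the lysosomal acid lipase, gave -0.21 for 6N against DMSO (adjusted p = 0.01114 in edgeR), 0.23 for 6N-10CA against 6N and 0.24 for 10CA against 6N. PNPLA3, a lipid droplet lipase and a target of SREBP-1, gave -0.48, 0.59 and 0.39 in these comparisons, with adjusted p from 7.577e-06 to 0.001324. The call of LIPA against DMSO was lost without DMSO replicate 1 or 2 or 6N replicate 2 (adjusted p up to 0.08365). With only the compared groups in the fit none of the 3 LIPA differences was called (adjusted p = 0.08909, 0.06523 and 0.07404 in the order given). Of the 4 proprotein convertases, PCSK6, which can cleave lipases, was called: 128 CPM in ethanol and 205 in DLPC (log2 fold change 0.68, adjusted p = 0.00248). Against DMSO as the vehicle, PCSK6 gave 0.14 (adjusted p = 0.546), and ethanol against DMSO gave -0.54, a difference that was not called.

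ANGPTL4 is a PPAR and hypoxia target, and both lists had called members while ANGPTL4 was not called. Among 9 tested PPAR targets, 6N raised CPT1A, the carnitine transferase of fatty acid oxidation (0.66, adjusted p = 0.04496 in edgeR), and lowered FABP1, the liver fatty acid binding protein (-0.64, adjusted p = 0.0246). FABP1 was 0.81 higher under 6N-10CA and 0.59 higher under 10CA than under 6N. PLIN2, which coats lipid droplets, was 0.40 higher under 6N-10CA than under DMSO and 0.38 higher than under 6N. ACADM, a medium-chain acyl-CoA dehydrogenase, was 0.23 higher under 6N-10CA than under DMSO. All but the FABP1 difference of 0.81 were lost when at least 1 library was left out, with adjusted p up to 0.2599 for CPT1A, 0.1891 and 0.1946 for FABP1, 0.2001 and 0.1024 for PLIN2 and 0.1987 for ACADM. For CPT1A the libraries were replicates 1 and 3 of DMSO and 1 and 2 of 6N. For FABP1 they were 1 and 3 of DMSO and 2 and 3 of 6N against DMSO, and 2 and 3 of 6N and 1 and 3 of 10CA between these compounds. For PLIN2 against DMSO they were all but replicate 2 of 6N-10CA, and against 6N they were replicate 2 of 6N and 1 and 3 of 6N-10CA. For ACADM, leaving out any of the 6 libraries ended the call.

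Of 10 hypoxia targets, 2 were called, both higher under 6N-10CA. P4HA1, a collagen prolyl hydroxylase subunit, was 0.64 higher than under DMSO (adjusted p = 0.001051 in edgeR) and 0.55 higher than under 6N (adjusted p = 0.001088). PDK1, a kinase that holds back pyruvate oxidation, was 0.33 higher than under 6N (adjusted p = 0.01734, but up to 0.1107 without 6N replicate 1 or 3 or 6N-10CA replicate 2 or 3). For ANGPTL4 the same comparisons gave -0.16 against DMSO (95% interval -0.80 to 0.48) and 0.21 against 6N (-0.45 to 0.86). Both intervals are wide, and the second holds the values of P4HA1 and PDK1 against 6N.

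The other 2 lists had 0 calls in edgeR. They were lipase maturation, anchoring and transport (5 tested genes in 8 comparisons, 4 of 40 tests with an unadjusted p under 0.05, 2 called by DESeq2 and 0 by limma-voom) and a list of angiopoietin-like genes, with ANGPTL1, ANGPTL2 and ANGPTL6 tested (3 of 24 unadjusted, 0 called by either). In the maturation list are LMF1 and SEL1L, which take part in the maturation of LPL in the endoplasmic reticulum. The heat map sets the members beside the called genes of all lists.

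**Figure D4:**
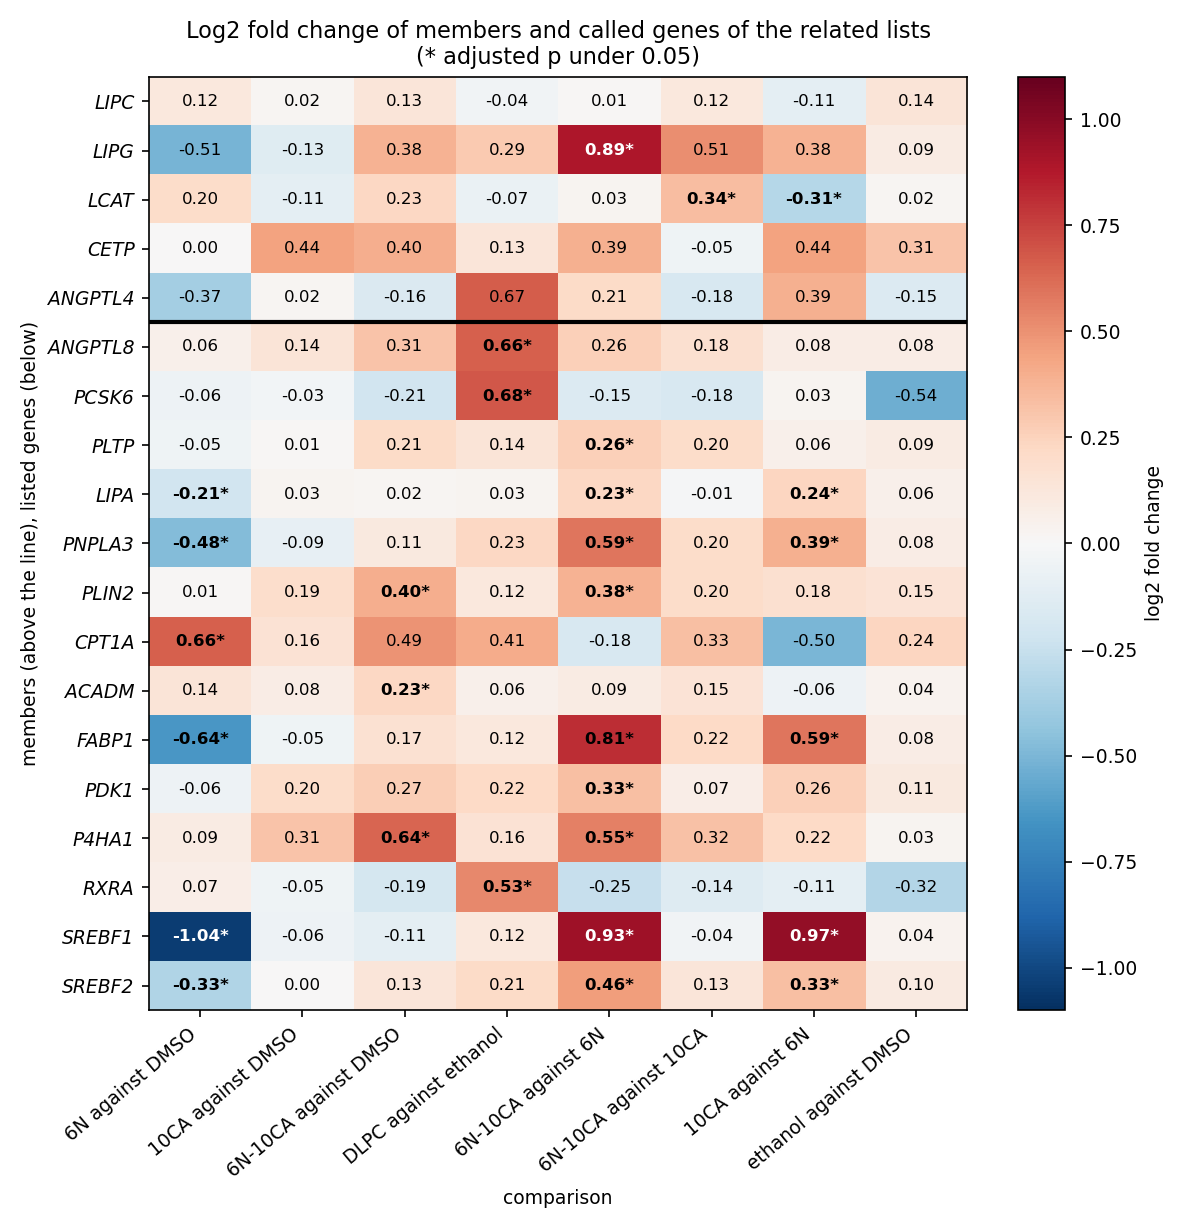
Log2 fold change (colour and printed value, first group minus second) of the 5 tested members, above the line, and of the listed genes called in at least 1 comparison, below it, in the 8 comparisons (horizontal axis); asterisks mark an adjusted p under 0.05 in edgeR. SREBF1 (-1.04) and FABP1 (-0.64) are low for 6N against DMSO, where LIPG stands at -0.51 without a call.

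The libraries held 28135967 to 34992442 counts each, of which 99.96% fell on the tested genes. All 8 hepatocyte markers were tested and summed to 46500 to 62700 CPM per library. Markers of other cell types summed to 5.59 to 7.75 CPM for adipocytes, 6.07 to 11.2 for stroma, 29.8 to 46.5 for endothelium (KDR at 0) and 79.9 to 109 for blood cells (HBB at 0). The filter was passed by 1 of 4 adipocyte, 2 of 5 stromal, 3 of 4 endothelial and 1 of 4 blood markers.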

How the data were processed

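The deposited table holds raw read counts per gene. The build, GRCh38, and DESeq2 are named in the submitters' processing notes; aligner, counter, annotation and strandedness: not given in the sources used here. Per the labels' protocols the libraries were made from amplified cDNA with Nextera XT and sequenced single-end; they name no molecular identifiers. Here counts were tested with edgeR 4.0.16 in R 4.3.3: TMM scaling, filterByExpr defaults, all 18 libraries in 1 quasi-likelihood fit, two-sided tests, Benjamini-Hochberg adjustment over 14797 genes, threshold 0.05. SE is the absolute log2 fold change divided by the root of F. The labels do not tie vehicles to compounds: DMSO was taken for the small molecules and ethanol for DLPC. Alternatives were RLE scaling, DESeq2 1.42.0, limma-voom (limma 3.58.1), no filter, the replicate number as a block, only the compared groups, the other vehicle or both, and each library left out. Positions and exon lengths are from GENCODE 29 (GRCh38). The text names every member, from each list up to 4 called genes per comparison with the smallest p, and for each tested member the 3 genes of at least 1 CPM with the highest r on log2 CPM (prior count 2); NR5A2, GPIHBP1, LMF1, SEL1L and the untested or uncalled angiopoietin-like genes were named after their values were seen. Members and lists were chosen with earlier results of these data known. Of the listed genes, 3 are not reported here, and they and 1 list are left out of every count over the lists; this was decided after their values were seen. The analysis was tested on simulated data, in which the share of false calls was somewhat above the nominal one.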

Additional observations from a re-analysis of the deposited data

How the results depend on the processing

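No direction reversed in 466 refits of 36 combinations of gene and comparison. These were members called with or without the replicate block and listed genes called without it, so values near 0 were largely left out beforehand. Uncalled values did reverse. With the other vehicle, LIPC went from 0.12 to -0.02 for 6N and from 0.02 to -0.13 for 10CA. It went from 0.13 to -0.01 for 6N-10CA and from -0.04 to 0.10 for DLPC. The number of genes called moved by more than 1.5 times in several settings. Without the filter on low counts it was 20 for 10CA against DMSO, 126 for 6N-10CA against that vehicle, 329 for DLPC against its own, 403 for 6N-10CA against 6N, 154 for 6N-10CA against 10CA, 423 for 10CA against 6N and 37 for ethanol against DMSO. With DESeq2 these were 13, 173, 380, 501, 119, 496 and 13. Where edgeR called 0 genes, 1033 (10CA against DMSO) and 479 (ethanol against DMSO) had an unadjusted p under 0.05, and limma-voom called 0 in both. The other vehicle gave 265 for 6N, 63 for 6N-10CA and 380 for DLPC, and both averaged 270, 129 and 541. Only the compared groups gave 13 for 6N-10CA against DMSO, 109 against 6N and 10 against 10CA, and 112 for 10CA against 6N. Leaving out 1 library gave 111 to 149 for 6N, 0 to 1 for 10CA and 12 to 23 for 6N-10CA against DMSO, 56 to 118 for DLPC, 138 to 235 for 6N-10CA against 6N, 14 to 28 for 6N-10CA against 10CA, 141 to 338 for 10CA against 6N and 0 to 7 for the vehicles. Among the members, LIPG under 6N against DMSO passed without the filter (1 member, adjusted p = 0.003327 in edgeR), beside 241 of 24982 genes. It also passed against both vehicles averaged (1 member, adjusted p = 0.04794). LCAT under 6N-10CA against DMSO passed without the filter (1 member, adjusted p = 0.04514), with both vehicles averaged (1, 0.04754) and with DESeq2 (1, 0.03057). For 6N-10CA against 10CA, 2 members passed without the filter, 0 with only the compared groups, and 0 to 1 with 1 library left out. The cause was not tested. CPT1A, ACADM and PLIN2 against DMSO were not called with the other vehicle or with only the compared groups. The latter also ended the calls of LIPA in all 3 comparisons, of PLTP for 6N-10CA against 6N and of FABP1 for 10CA against 6N (adjusted p = 0.08633), and ACADM was not called without the filter (0.06892).

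The replicate numbers are shared by the groups, but no label says that they pair libraries. Over all 14797 tested genes, the correlation of same-numbered deviations from group means was 0.0045 to 0.18, over 0.1 in 7 of 24 pairs, and highest for the own number in 21 of 24. Over the 7503 genes whose mean reached 20 CPM it was 0.21 to 0.75, over 0.1 in 24 of 24 and highest for the own number in 24. Whether the correlation passed 0.1 thus depended on the genes used, while the own number was highest in most pairs of both sets. With the block, the common coefficient of variation between libraries fell from 6.96% to 4.42%. Pairing was judged by that threshold on all tested genes, after the calls with the block had been seen. The main fit has no block and so counts any spread shared by number as error. With the replicate block, 551, 32, 562, 997, 1231, 349, 1133 and 18 genes were called for 6N, 10CA and 6N-10CA against DMSO, DLPC against ethanol, 6N-10CA against 6N and 10CA, 10CA against 6N, and ethanol against DMSO. Members called with the block were 2 for 6N against DMSO (LCAT, adjusted p = 0.002829; LIPG, 8.175e-04), 2 for 6N-10CA against DMSO (LCAT, 0.001745; LIPG, 0.01123), 1 for DLPC (LIPG, 0.03433), 2 for 6N-10CA against 10CA (LCAT, 2.222e-05; LIPG, 8.661e-04), 2 for 10CA against 6N (LCAT, 1.487e-05; LIPG, 0.009967) and 1 for 6N-10CA against 6N (LIPG, 3.840e-07), with the same signs as without it. Of the listed genes, the block called, higher and lower in the same order of comparisons, 3 and 8, 2 and 0, 15 and 0, 18 and 3, 20 and 1, 12 and 1, 14 and 4, and 0 and 1. These were 15.3%, 2.78%, 20.8%, 29.2%, 29.2%, 18.1%, 25% and 1.39% of the tested listed genes. Of all genes, the block called 3.72%, 0.216%, 3.8%, 6.74%, 8.32%, 2.36%, 7.66% and 0.122%. The lists were chosen with earlier results of these data known, so nothing is read from the difference.

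CETP and ANGPTL4 rested on 35 to 110 counts per library, and their log2 fold changes had SEs of 0.21 to 0.31. With the replicate block, the SEs of both genes were 0.21 to 0.22. How much of this error comes from depth was not tested.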
